A study of Rattus norvegicus with 6 samples.

Results

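Hepatic stellate cells are the liver's vitamin A-storing pericytes, and 10 genes tied to their identity or their quiescent state were read in bulk RNA sequencing of fibrotic rat liver. The genes were Ecm1, Bmp10, Reln, Colec11, Ngfr, Rgs5, Cygb, Gfap, Hand2 and Lhx2. They were taken by symbol from a table of 16209 genes, and all 10 were present and had enough reads to be tested. The members were chosen by hand with the ginkgetin and vehicle values of these same libraries in view, so their values are given as a description and without a test.

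Livers came from rats with liver fibrosis that received either ginkgetin, a biflavone found in plants, at a dose of 10 mg/kg/day (3 samples) or vehicle (3 samples). Both groups were fibrotic, and no healthy liver is part of the comparison. The labels do not give the strain, age, sex or cause of fibrosis, or say whether each sample was a separate animal, so p-values measure only the spread between these samples, which may be technical in part. The value columns of the vehicle group carry the letters TAA, which the labels do not use, and every direction rests on taking them as vehicle. Values are normalized reads per gene, that is, reads divided by 1 factor per library. Log2 differences are ginkgetin minus vehicle on log2(value + 1), which understates the change of genes with few reads.

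In a quiescent state stellate cells hold retinoid droplets, wrap the sinusoids and secrete growth factors and lectins. On injury they lose much of this programme and turn into collagen-producing, contractile myofibroblasts, the main source of scar in many liver diseases. Several of the genes described here act on that switch: Ecm1 keeps TGF-beta, the main profibrotic cytokine, in its latent form, and mice lacking Lhx2 develop liver fibrosis with activated stellate cells. Several are also expressed outside stellate cells. Ecm1 is also made by hepatocytes, Gfap and Ngfr by glia, Reln by lymphatic endothelium and Rgs5 by other pericytes and smooth muscle.

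Markers of other cell types differed between libraries and between groups. Reads assigned to genes ran from 13735802 to 14933853 in ginkgetin libraries and from 13372367 to 14150827 in vehicle libraries. Normalized totals were unlike: 16510702, 16250451 and 16991873 in ginkgetin replicates 1 to 3 and 15863575, 11768875 and 8265117 in vehicle replicates 1 to 3. Sums in normalized reads are therefore not parts of an equal total. Vehicle replicate 3 stood apart, with hepatocyte markers at a mean of -2.15 and myofibroblast markers at 3.38 in log2 units centred over the 6 libraries. The hepatocyte list, 18 genes in which each had a higher mean with ginkgetin, summed to between 2186769 and 3416526 normalized reads in ginkgetin livers and between 523046 and 2739039 in vehicle livers. The myofibroblast list had 10 of 11 tested genes lower and summed to between 3695 and 6645 normalized reads with ginkgetin and between 10753 and 123351 with vehicle. None of the genes on these 2 lists was at 0 throughout a group. How far the makeup of the tissue takes part in the values below was not tested, and in bulk tissue fewer cells of a type and less RNA per cell cannot be told apart.

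Stellate cell RNA was present in every library. Lrat, the retinol-esterifying enzyme that defines these cells and is named here for that reason after its values were seen, had 262, 530 and 327 normalized reads in ginkgetin livers and 276, 53.2 and 450 in vehicle livers. Des, the muscle-type intermediate filament of rat stellate cells, had 106, 55.5 and 35.9 with ginkgetin and 121, 170.5 and 1255 with vehicle.

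The 10 genes did not all lie to one side. The 3 ginkgetin values lay above all 3 vehicle values for Ecm1, Bmp10 and Gfap, lay below them for Cygb, and overlapped them for the other 6. Groups failed to overlap in 27.4% of the 14639 genes tested, 11.4% with ginkgetin higher and 16.1% with ginkgetin lower, and nothing is read from the members' 4 of 10 because this contrast chose them. Of the 10, 7 had a higher mean log2 value with ginkgetin (8 without vehicle replicate 3), as had 48.6% of all genes tested, and the median log2 difference was 0.66 (1.02 without vehicle replicate 3), beside -0.02 over all genes tested.

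**Figure D1:**
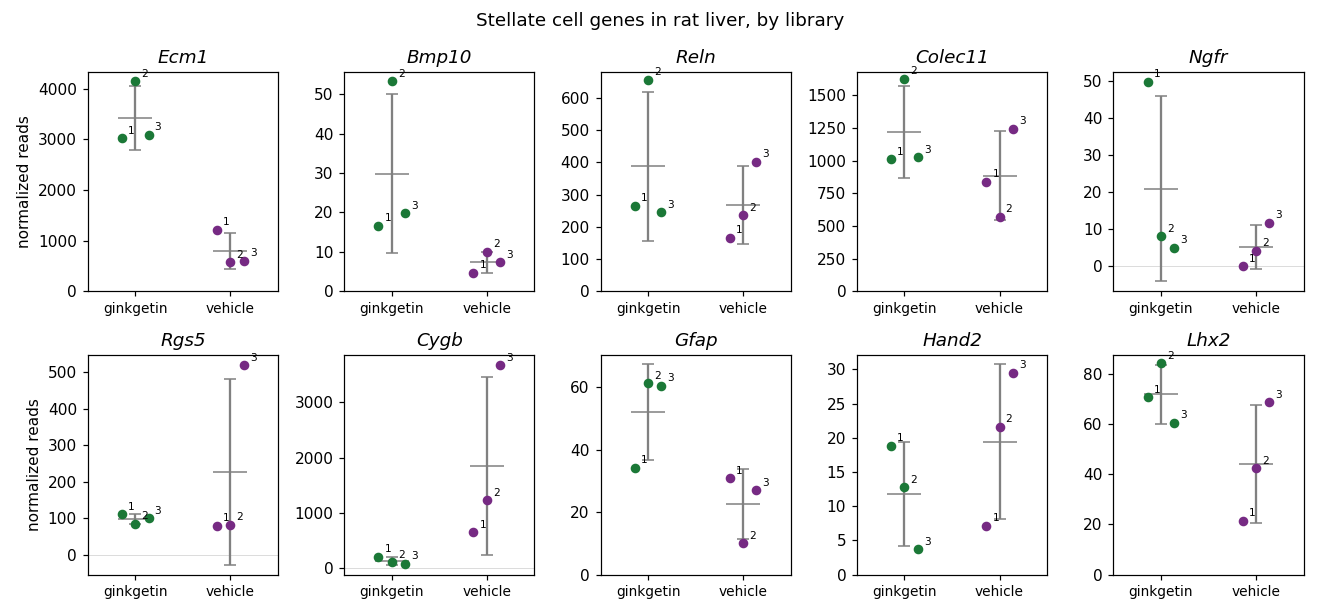
Normalized reads (y axis, linear, a scale of its own in each panel) of the 10 genes in ginkgetin livers (green) and vehicle livers (purple). Numbers are replicates, horizontal bars the mean and whiskers the SD of 3 libraries; the groups are apart for Ecm1, Bmp10, Gfap and Cygb, and vehicle replicate 3 is the highest of all libraries for Cygb, Rgs5 and Hand2.

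Promoter sequence is shown for the genes whose ginkgetin values all lay above the vehicle values. It runs from 250 bases before to 50 after the gene start, 5′ to 3′ along the gene, from RefSeq on build GRCr8. Entries were found for 8 of the 10 genes; Ngfr and Cygb had none. Capitals mark a TATA box (TATAAA), a GC box (GGGCGG), a SMAD-type box (CAGACA), a hypoxia-type core (ACGTG), a LIM homeodomain core (TAATTA) or a GATA-type core (AGATAA), searched on both strands. No 2 of the motifs overlap in the lines shown.
Ecm1 promoter, chr2:185981557-185981856, minus strand: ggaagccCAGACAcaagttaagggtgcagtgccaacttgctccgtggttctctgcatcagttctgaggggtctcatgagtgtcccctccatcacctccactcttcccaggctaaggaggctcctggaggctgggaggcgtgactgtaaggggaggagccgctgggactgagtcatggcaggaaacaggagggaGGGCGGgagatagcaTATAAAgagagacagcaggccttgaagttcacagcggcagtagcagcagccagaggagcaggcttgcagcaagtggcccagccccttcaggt
Bmp10 promoter, chr4:121429125-121429424, plus strand: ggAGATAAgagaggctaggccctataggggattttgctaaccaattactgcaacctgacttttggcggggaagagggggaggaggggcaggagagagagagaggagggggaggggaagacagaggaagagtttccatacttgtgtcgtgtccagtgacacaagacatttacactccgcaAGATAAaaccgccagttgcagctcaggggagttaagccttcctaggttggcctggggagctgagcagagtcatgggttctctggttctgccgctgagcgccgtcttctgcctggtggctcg
Gfap promoter, chr10:88361612-88361911, minus strand: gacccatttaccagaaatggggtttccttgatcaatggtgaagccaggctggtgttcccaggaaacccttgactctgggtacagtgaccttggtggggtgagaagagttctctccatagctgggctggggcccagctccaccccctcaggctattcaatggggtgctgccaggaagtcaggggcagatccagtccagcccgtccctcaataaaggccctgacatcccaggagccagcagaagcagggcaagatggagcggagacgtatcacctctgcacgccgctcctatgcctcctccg

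The 3 promoters shared none of the motifs searched. Ecm1 held a SMAD-type box at bases 8 to 13, a GC box at bases 194 to 199 and a TATA box at bases 209 to 214, counted from the 5′ end of the window. A TATA box of these letters stood in 14.2% of 33469 promoters, a GC box in 33.1% and a SMAD-type box in 21.1%. Bmp10 held GATA-type cores at bases 3 to 8 and 180 to 185, letters found in 11.6% of promoters, and Gfap held none of the motifs. Among the other members with an entry, Lhx2 and Reln had GC contents of 80.3% and 79.0%, against a median of 51.7% over all promoters, and Hand2 was the only one with a LIM homeodomain core, present in 5.4% of all promoters. These matches describe letters in a window and do not show binding.

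Ecm1, the secreted matrix glycoprotein that holds TGF-beta latent, was higher in every ginkgetin liver. It had 3023, 4148 and 3095 normalized reads in ginkgetin livers and 1216, 575 and 602 in vehicle livers. The lowest ginkgetin value was above the highest vehicle value, and the means were 3422 ± 630 with ginkgetin and 797 ± 363 with vehicle (SD, n = 3 each). The ratio of means was 4.29 and the log2 difference 2.17 (SE 0.357), with a range of 1.98 to 2.52 when any 1 library was left out. Relative to the mean of the hepatocyte list in the same library it was 0.99. The part of hepatocyte RNA in these values was not tested. The profiles closest to that of Ecm1 over the 6 libraries, among 12606 genes with a mean of at least 10 normalized reads, were those of Foxn3, a forkhead transcription factor, Angptl4, a secreted inhibitor of lipoprotein lipase, and Slc46a1, the proton-coupled folate transporter. Their root mean square differences from Ecm1 were 0.20, 0.29 and 0.30 on the log2 scale, against 1.15 for Ecm1 about its own mean.

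The genes that make, store and release TGF-beta lay mostly on the other side. Of 15 genes tested, the mean was lower with ginkgetin in 13, the median log2 difference being -1.60 (-1.03 without vehicle replicate 3), and 7 lay wholly below and 1, Furin, wholly above the vehicle values (16.1% and 11.4% of all genes tested). Furin, a protease that cleaves the TGF-beta precursor, is named here after its values were seen. None passed a Benjamini-Hochberg threshold of 0.05 in limma, a linear model fitted to all genes, where 0.0137% of all genes tested passed. With no adjustment, p was under 0.05 for 7 lower and 0 higher genes (13.2% and 7.00% of all genes tested), edgeR on whole reads recovered from the values called 0, and DESeq2 called 7, all lower, where it called 9.60% of the genes it gave an adjusted p.

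Itgb6, the integrin chain that with the alpha-v chain frees TGF-beta from its latent complex, had 29.9, 18.5 and 11.1 normalized reads with ginkgetin and 104, 210 and 219 with vehicle (log2 difference -3.13, SE 0.491, limma adjusted p = 0.0679). Ltbp1, which tethers the latent complex to matrix, had 425, 289 and 230 with ginkgetin and 824, 1076 and 1399 with vehicle (-1.82, SE 0.304, limma adjusted p = 0.0688). The ligand Tgfb2 was at -1.98 (SE 0.463) and the binding protein Ltbp3 at -2.58 (SE 0.629). All 4 kept their sign without vehicle replicate 3, at -2.94, -1.63, -1.80 and -1.89. Itgb6 is an epithelial gene, and cholangiocyte markers were lower in 8 of 8 tested genes. Their sums were 567 to 1088 normalized reads in ginkgetin livers and 2484, 2737 and 20820 in vehicle replicates 1 to 3. Epcam, 1 of these markers, had 365, 259 and 233 with ginkgetin and 783, 1106 and 1277 with vehicle. It did not share the jump of the sum in vehicle replicate 3. The part of cholangiocytes in the Itgb6 values was not tested.

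Bmp10, a ligand of the endothelial receptor ALK1 that mouse stellate cells secrete together with BMP9, was a low-count gene with higher values under ginkgetin. It had 16.6, 53.2 and 19.8 normalized reads in ginkgetin livers and 4.75, 9.98 and 7.37 in vehicle livers. These rest on 77 reads over the ginkgetin libraries and 28 over the vehicle libraries. The groups did not overlap, and ginkgetin replicate 2 was the highest. Their log2 difference was 1.74 (SE 0.631), and between 1.24 and 2.06 with 1 library left out. Vehicle replicate 3 did not stand apart for this gene, at 0.08 above the mean of the other 2 vehicle libraries on the log2 scale. The closest profiles were those of Rxra, a retinoid X receptor, Eif4ebp2, a translation repressor, and Cers6, a ceramide synthase, at root mean square differences of 0.31, 0.33 and 0.33.

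Its sister ligand and the hormone gene downstream of BMP signalling pointed the same way as Bmp10, while the receptor did not. Gdf2, which encodes BMP9, had 240, 734 and 361 normalized reads with ginkgetin and 209, 104 and 60.2 with vehicle, without overlap (log2 difference 1.86, SE 0.533, limma adjusted p = 0.134). Hamp, which encodes hepcidin and is induced by BMP signalling in hepatocytes, was at 2.98 (SE 0.489, limma adjusted p = 0.0688). Acvrl1, which encodes ALK1, had 192, 115 and 68.0 with ginkgetin and 173, 271 and 637 with vehicle and overlapped (-1.43, SE 0.536). Bmp4, a ligand of other type I receptors, had 23.2, 16.2 and 6.19 with ginkgetin and 122, 135 and 51.6 with vehicle (-2.73, SE 0.607). Of the 15 genes of this list, 7 had higher and 8 lower means, at a median of -0.11. None passed in limma or edgeR. With no adjustment, p was under 0.05 for 2 higher and 2 lower genes (7.00% and 13.2% of all genes tested). DESeq2 called 2 higher and 1 lower, beside 9.60% of all genes with an adjusted p there.

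Reln, a large secreted glycoprotein of stellate cells and lymphatic endothelium, did not separate the groups. It had 265, 655 and 245 normalized reads in ginkgetin livers and 165, 235 and 402 in vehicle livers. Ginkgetin replicate 2 and vehicle replicate 3 were each the highest of their group, and without ginkgetin replicate 2 the log2 difference of 0.48 (SE 0.456) was 0.03. Without vehicle replicate 3 it was 0.82. The closest profiles were those of Zfp106, a zinc finger protein, Uhmk1, a kinase, and Tgfbr2, the type II TGF-beta receptor, at 0.14, 0.14 and 0.15.

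The 3 partners of reelin split. Dab1, the intracellular adaptor of the reelin receptors, had 233, 184 and 168 normalized reads with ginkgetin and 53.4, 7.49 and 11.0 with vehicle. The lowest ginkgetin value was over 3 times the highest vehicle value, at a log2 difference of 3.46 (SE 0.670, limma adjusted p = 0.0876). The receptors lay on the other side without overlap: Vldlr had 34.3, 27.8 and 14.8 with ginkgetin and 53.4, 120 and 243 with vehicle (-2.21, SE 0.603). Lrp8, which encodes ApoER2, was at -1.07 (SE 0.517). None of the 3 passed in limma or edgeR. Dab1 (higher) and Vldlr (lower) had an unadjusted p under 0.05, as had 7.00% and 13.2% of all genes tested in these directions. DESeq2 called 1 higher and 1 lower, beside 9.60% of all genes with an adjusted p there. Lymphatic endothelial markers, another source of reelin, had lower means in 4 of 6 genes, and their sum ran from 2002 to 2786 normalized reads in ginkgetin livers and from 4194 to 11875 in vehicle livers, with none at 0 throughout a group. Ccl21, the chemokine of lymphatic vessels, had 470, 93.7 and 30.9 with ginkgetin and 1827, 9629 and 7556 with vehicle, without overlap. It belongs to that sum and made up most of it in vehicle replicates 2 and 3, whose sums were 11875 and 9602. The gap between the sums is therefore not a sign apart from Ccl21. The part of lymphatic endothelial cells in the Reln values was not tested.

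Colec11, a collectin that binds microbial sugars and starts the lectin pathway of complement, varied least of the 10 over the libraries. It had 1009, 1624 and 1024 normalized reads in ginkgetin livers and 836, 571 and 1244 in vehicle livers. Vehicle replicate 3 lay above 2 of the 3 ginkgetin values. The log2 difference was 0.50 (SE 0.347), or 0.78 without vehicle replicate 3. The closest profiles were those of Slc45a3, a sugar transporter, Mef2a, a MADS-box transcription factor, and Nck1, an adaptor protein, at 0.08, 0.15 and 0.15.

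Of its binding partners, Colec10 and Masp1 lay above all vehicle values in each ginkgetin liver. Colec10, the collectin that forms heteromers with collectin-11, had 594, 766 and 416 normalized reads with ginkgetin and 249, 128 and 273 with vehicle, without overlap (log2 difference 1.48, SE 0.354, limma adjusted p = 0.106). Masp1, the protease these complexes carry, had 419, 1606 and 667 with ginkgetin and 314, 229 and 174 with vehicle (1.72, SE 0.473). Without vehicle replicate 3 the differences were 1.68 and 1.51. Mbl2, a mannose-binding lectin of hepatocytes, was at 1.75 (SE 0.674) and at 0.92 without that library. Over the 11 genes of the list 8 had higher means, at a median of 0.76 (0.20 without vehicle replicate 3). None passed in limma or edgeR. An unadjusted p under 0.05 was found for 3 higher and 0 lower genes (7.00% and 13.2% of all genes tested). DESeq2 called 2, beside 9.60% of all genes with an adjusted p there.

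Ngfr, the p75 neurotrophin receptor found on stellate cells and glia, rested on few reads and on 1 library. It had 49.8, 8.10 and 4.95 normalized reads in ginkgetin livers and 0, 4.16 and 11.7 in vehicle livers. The 0 in vehicle replicate 1 allows up to 3.56 normalized reads, the worth of 3 reads in that library, and covers counting error only. Of 56 reads over the ginkgetin libraries 45 came from replicate 1, and the groups overlapped. This gave a log2 difference of 1.80 (SE 1.14), or 0.87 without ginkgetin replicate 1 and 0.79 without vehicle replicate 1. No gene followed it closely: Igf2, the nearest, was 0.70 away.

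Most other neurotrophin genes were lower with ginkgetin. Of 10 tested, 8 had lower means, and the median was -1.01 (-0.55 without vehicle replicate 3). Bex3, an adaptor that binds p75, had 77.4, 47.4 and 26.0 normalized reads with ginkgetin and 110.3, 274 and 346 with vehicle (log2 difference -2.23, SE 0.543, limma adjusted p = 0.107). The ligand Ntf4 had 0, 2.31 and 2.47 with ginkgetin and 9.49, 19.1 and 64.4 with vehicle (-3.41, SE 0.873). Ntrk2, the receptor TrkB, lay above without overlap but at 17.7, 2.31 and 11.1 with ginkgetin and 1.19, 0 and 1.23 with vehicle, so its value depends on the 1 added before taking logs. None passed in limma or edgeR. An unadjusted p under 0.05 was found for 1 higher and 3 lower genes (7.00% and 13.2% of all genes tested). DESeq2 called 2, both lower, beside 9.60% of all genes with an adjusted p there. Of the glial list, 5 of 8 genes could be tested, 3 of them lower. Sox10 and Cdh19 were at 0 in all vehicle libraries, but they reached a value of 1 in fewer than 3 libraries and were not tested. No difference is read from them, since a 0 allows up to 3 reads. The sum of the glial list ran from 90.3 to 115 normalized reads with ginkgetin and from 133 to 167 with vehicle.

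Rgs5, a regulator of G-protein signalling typical of pericytes, had 1 value far above the others, in vehicle replicate 3. It had 112, 85.6 and 100.2 normalized reads in ginkgetin livers and 79.5, 82.3 and 519 in vehicle livers. The lowest ginkgetin value was above vehicle replicates 1 and 2. The difference was -0.61 (SE 0.678) on the log2 scale with all libraries and 0.28 without vehicle replicate 3. The other pericyte genes were lower in 7 of 9 cases, at a median of -0.60 (-0.07 without that library), with sums of 588 to 772 normalized reads with ginkgetin and 752 to 1904 with vehicle. In limma and edgeR none passed. Unadjusted p was under 0.05 for 3 lower genes (13.2% of all genes tested), and DESeq2 called 2 (9.60% of all genes with an adjusted p there). Among the pericyte genes Mcam, an adhesion molecule of vessel walls, had 97.3, 86.8 and 74.2 with ginkgetin and 145, 254 and 337 with vehicle (-1.43, SE 0.357). Higd1b, at 0 in all ginkgetin libraries, had 9.49, 2.49 and 8.59 with vehicle. Its 0 values allow up to 3.32, 3.47 and 3.71 normalized reads, the worth of 3 reads, which is above the value in vehicle replicate 2. Vascular smooth muscle genes were split 4 and 4 and summed to between 370 and 800 normalized reads with ginkgetin and between 268 and 1349 with vehicle.

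**Figure D2:**
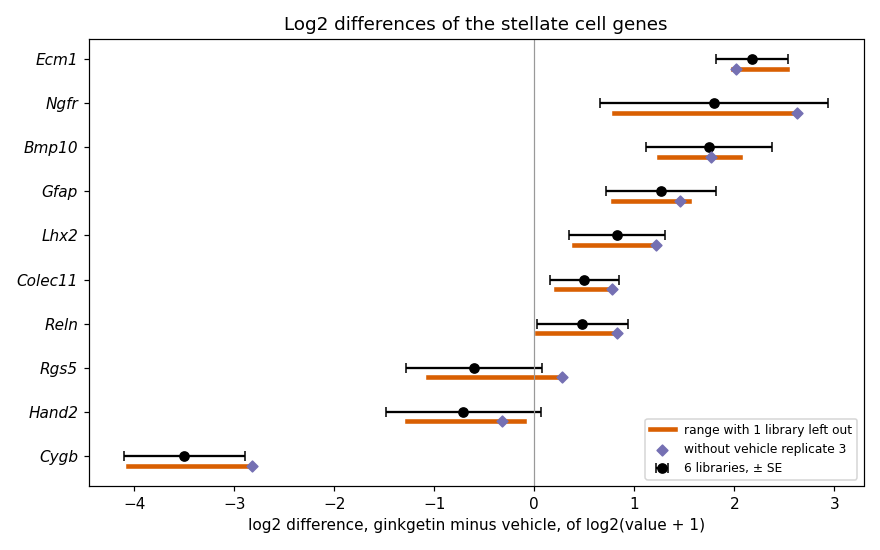
Log2 difference, ginkgetin minus vehicle (x axis), of the 10 genes from 6 libraries (black points ± SE), with its range when 1 library is left out (orange) and its value without vehicle replicate 3 (violet diamond). Rgs5 crosses 0 without vehicle replicate 3, and Cygb stays between -4.06 and -2.82.

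Cygb, the stellate cell globin that binds oxygen and nitric oxide, was lower in every ginkgetin liver and had the largest difference of the 10. It had 209, 109 and 87.8 normalized reads in ginkgetin livers and 655, 1228 and 3671 in vehicle livers. The highest ginkgetin value was far below the lowest vehicle value, at a log2 difference of -3.50 (SE 0.603). It was -2.82 without vehicle replicate 3 and -3.11 relative to the other stellate cell markers of the same library. Within the vehicle group Cygb spanned 5.61 times, and vehicle replicate 3 lay 2.03 above the mean of the other 2 on the log2 scale.

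The profiles nearest to that of Cygb over the 6 libraries, among 12606 genes, were those of Eln, Plod2 and Mgp. Eln, elastin itself, was 0.14 away, Plod2, a collagen lysyl hydroxylase, 0.20, and Mgp, a matrix calcification inhibitor, 0.21, where Cygb varied by 1.93 about its own mean. Eln, a portal fibroblast marker, had 238, 96.0 and 95.3 normalized reads with ginkgetin and 740, 1447 and 3774 with vehicle. Portal fibroblast markers were lower in 8 of 9 tested genes, at a median of -1.75, with sums of 4390 to 6705 normalized reads in ginkgetin livers and 4802 to 9153 in vehicle livers and none at 0 throughout a group. Their part in the Cygb values was not tested.

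Gfap, the intermediate filament of astrocytes and of quiescent stellate cells in the rat, had higher values with ginkgetin at a low level. It had 34.3, 61.3 and 60.6 normalized reads in ginkgetin livers and 30.8, 9.98 and 27.0 in vehicle livers, from 133 and 82 reads. The groups did not overlap, but ginkgetin replicate 1 and vehicle replicate 1 lay close, 31 and 26 reads. Vehicle replicate 3 held 44 reads, more than ginkgetin replicate 1. That order is reversed only by the deposited scaling, in which 1 read is worth 0.614 normalized reads in vehicle replicate 3 and 1.106 in ginkgetin replicate 1. On the log2 scale the difference was 1.26 (SE 0.550), 0.78 without vehicle replicate 2 and 0.08 relative to the hepatocyte list. The closest profiles were those of Sgtb, a co-chaperone, Nrep, a neuronal protein, and Sectm1a, at 0.22, 0.26 and 0.27.

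The other filament genes of stellate cells lay opposite to Gfap. Nes, which encodes nestin, had 3.32, 8.10 and 7.42 normalized reads with ginkgetin and 30.8, 21.6 and 199 with vehicle (log2 difference -2.92, SE 0.858, limma adjusted p = 0.139). Vim, which encodes vimentin and is also high in fibroblasts and leukocytes, had 1402, 648 and 573 with ginkgetin and 1784, 2758 and 17856 with vehicle (-2.46, SE 0.809). Des was at -2.29 (SE 0.838). Without vehicle replicate 3 these were -1.96, -1.46 and -1.25. Of 6 filament and globin genes tested, 4 were lower, at a median of -1.55, and none passed in limma or edgeR. Unadjusted p was under 0.05 for 3 lower genes (13.2% of all genes tested), and DESeq2 called 3 (9.60% of all genes with an adjusted p there).

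Hand2, a basic helix-loop-helix factor of the stellate cell lineage, had 18.8, 12.7 and 3.71 normalized reads in ginkgetin livers and 7.12, 21.6 and 29.5 in vehicle livers. The groups overlapped, and the ginkgetin values rest on 31 reads. The log2 difference was -0.71 (SE 0.773), or -0.11 without ginkgetin replicate 3. Its nearest profiles were those of Cdca7, Pmaip1 and Lfng, at 0.25, 0.26 and 0.27.

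Lhx2, the LIM homeodomain factor whose loss activates stellate cells in mice, had 70.8, 84.5 and 60.6 normalized reads in ginkgetin livers and 21.4, 42.4 and 68.7 in vehicle livers. Vehicle replicate 3 lay within the ginkgetin range, and the other 2 vehicle libraries lay below it. The log2 difference was 0.83 (SE 0.482), or 1.22 without vehicle replicate 3 and 0.39 without vehicle replicate 1. The nearest profiles were those of Foxo4, a forkhead factor, Ttbk2, a tubulin kinase, and Pcbp3, an RNA-binding protein, at 0.11, 0.16 and 0.22.

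Other transcription factors of liver mesenchyme were lower on average in 9 of 10 cases, with -0.52 as the median log2 difference. Tcf21, a factor of stellate cells and other fibroblasts, had 132, 99.5 and 86.6 normalized reads with ginkgetin and 270.5, 393 and 1077 with vehicle, without overlap (-2.21, SE 0.482, limma adjusted p = 0.0936). Mef2c, a MADS-box factor of muscle and mesenchyme, had 67.4, 49.8 and 40.8 with ginkgetin and 103, 119 and 317 with vehicle (-1.59, SE 0.476). Without vehicle replicate 3 they were at -1.64 and -1.09. No gene passed in limma or edgeR, and 2 lower genes had an unadjusted p under 0.05 (13.2% of all genes tested). DESeq2 called 2, beside 9.60% of all genes with an adjusted p there.

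**Figure D3:**
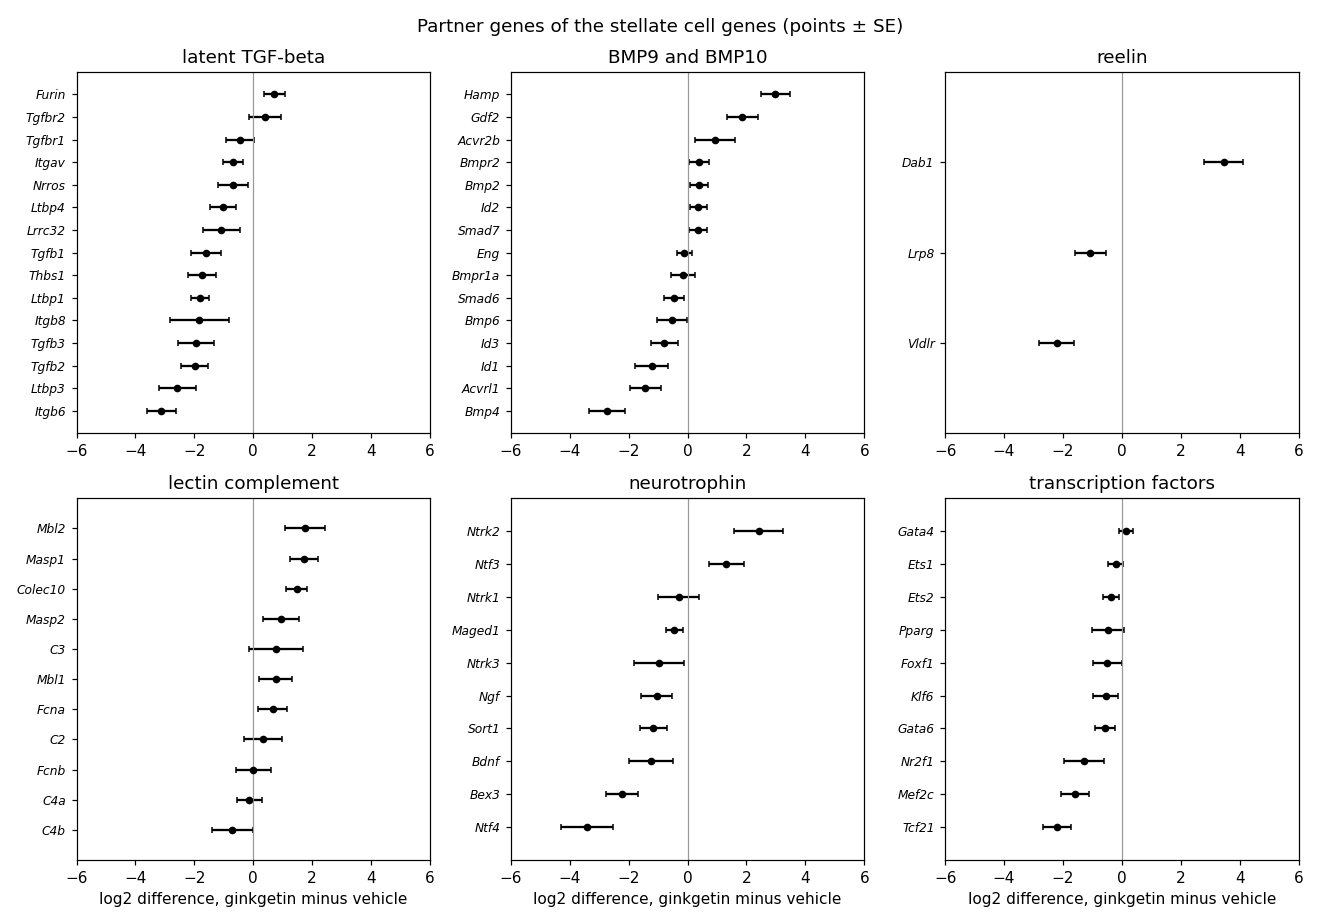
Log2 difference, ginkgetin minus vehicle (x axis, points ± SE), of the partner genes of 6 pathways (y axis), from the fit to 6 libraries. TGF-beta genes and transcription factors lie mostly below 0, lectin pathway genes mostly above, and the reelin adaptor Dab1 (3.46) is opposite to its receptors.

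The other stellate cell markers were split. Of 18 tested, 7 had a higher mean and 11 a lower mean with ginkgetin, the median log2 difference being -0.26, and 4 lay wholly above and 8 wholly below the vehicle values (11.4% and 16.1% of all genes tested). Adamtsl2, a matrix protein that binds latent TGF-beta binding proteins, had 641, 392 and 156 normalized reads with ginkgetin and 1936, 3786 and 4499 with vehicle (-3.23, SE 0.536, limma adjusted p = 0.0688). Pdgfrb, the receptor that drives stellate cell proliferation, had 324, 246 and 203 with ginkgetin and 843, 1178 and 2900 with vehicle (-2.49, SE 0.441). Angptl6, a secreted angiopoietin-like protein, had 323, 531 and 314 with ginkgetin and 154, 76.5 and 35.0 with vehicle (2.32, SE 0.514). No gene of the list passed in limma or edgeR. An unadjusted p under 0.05 was found for 4 higher and 8 lower genes (7.00% and 13.2% of all genes tested). Des and Nes are among the lower genes here and among the lower filament genes above, so these counts are not separate. DESeq2 called 2 higher and 6 lower, beside 9.60% of all genes with an adjusted p there.

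**Figure D4:**
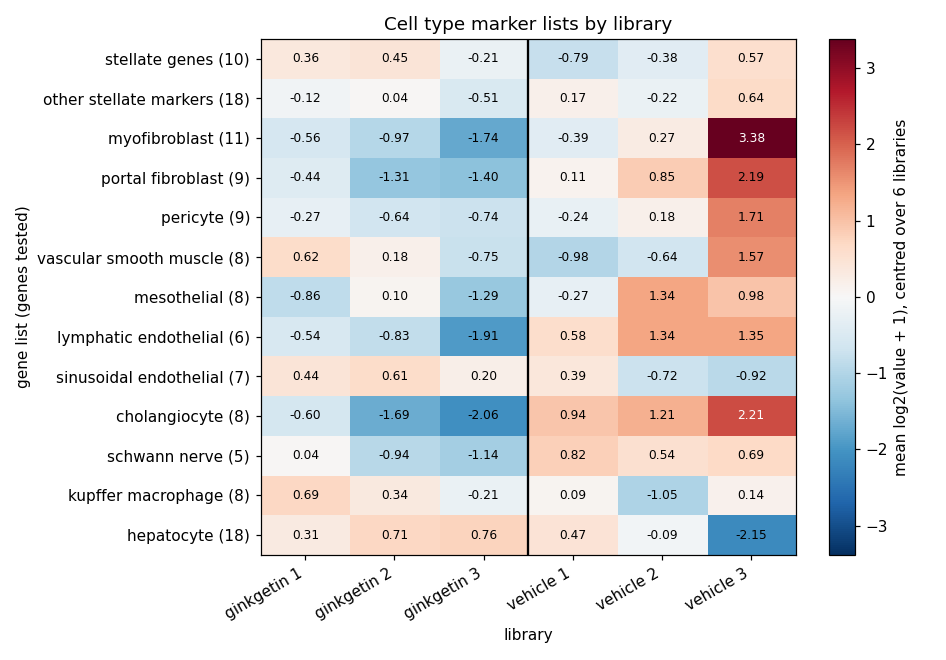
Mean log2(value + 1), centred over the 6 libraries, of the 10 genes and of 12 marker lists (rows, with the number of genes tested) in each library (columns). Vehicle replicate 3 is at 3.38 for myofibroblast genes and -2.15 for hepatocyte genes, while the 10 stellate cell genes run from -0.79 to 0.57.

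Of the other cell types shown, mesothelial markers had lower means in 6 of 8 genes, with sums of 249.9 to 439.7 normalized reads with ginkgetin and 617 to 1141 with vehicle. Sinusoidal endothelial markers had higher means in 6 of 7 genes, with sums of 3999 to 5198 with ginkgetin and 2303 to 4496 with vehicle. Kupffer cell and macrophage markers were split 4 and 4, with sums of 5351 to 9620 with ginkgetin and 3752 to 11023 with vehicle. What part these cells have in the values of the 10 genes was not tested.

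Set side by side within the vehicle group, the 10 genes also differed in how they stood in replicate 3, the library with the most matrix RNA. Relative to the mean of vehicle replicates 1 and 2 on the log2 scale, Rgs5 lay at 2.67, Ngfr at 2.48 and Cygb at 2.03. The Ngfr value rests on 0, 5 and 19 reads in vehicle replicates 1 to 3 and depends on the 1 added before taking logs. Hand2, Lhx2, Reln and Colec11 lay at 1.17, 1.16, 1.02 and 0.85, and Gfap at 0.58. Ecm1 was the only one below, at -0.47, and the median over all genes tested was 0.05. Among pairs of members, the root mean square difference over the 6 libraries was smallest for Reln and Colec11, 0.39, followed by Reln and Lhx2 at 0.40. About their own means Colec11, Reln and Lhx2 varied by only 0.467, 0.634 and 0.645. Small distances between genes that vary little do not show that they vary together.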

How the data were processed

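Liver RNA of 6 samples, 3 with ginkgetin and 3 with vehicle, was made into libraries from total RNA with a SMARTER kit for mRNA, according to the labels' protocols. The submitters' processing notes name mRatBN7.2 as the genome build. The aligner, counting tool, annotation and strand setting were not given in the sources used here, and reads of overlapping or near-identical genes may therefore be shared. The values deposited by the authors are a signal, normalized reads per gene. Within 0.02, 99.67% of the values of each library were whole multiples of its smallest positive value. Whole reads were recovered from these and rounded, and 53 of 16209 rows held a value that was not whole. The upper limit set by a 0 was 3 reads.

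Differences were tested with limma 3.58.1 (R 4.3.3, trended prior variance, robust) on log2(value + 1). Genes entered if 3 or more libraries reached a value of 1, which left 14639, and p-values were adjusted by Benjamini-Hochberg. edgeR 4.0.16 and DESeq2 1.42.0 on recovered reads, and other pseudocounts, filters, scalings and left-out libraries, were alternatives. Members and lists were chosen with earlier results of these data known. Named genes were the members, up to 4 genes of smallest p per list, and for members with a mean of at least 10 normalized reads the 3 genes of smallest root mean square difference in centred log2 profile; Lrat and Furin fall outside this rule. The deposited table holds G6pc1 under an older symbol. No pair of libraries was a duplicate.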

Additional observations from a re-analysis of the deposited data

How the results depend on the processing

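The number of genes past the threshold, 2 of 14639 in limma, was 5 with a pseudocount of 5, 1 with quantile scaling, 94 with equal library totals, 0 in edgeR and 1339 in DESeq2. With 1 library left out it ran from 0 to 696: leaving out vehicle replicate 1 gave 696, vehicle replicate 3 gave 84 and any other gave 0. With the replicate number as a block it was 0 (2382 genes at an unadjusted p under 0.05). No sign was seen that the numbers pair the samples: deviations of same-numbered libraries correlated at -0.16, 0.03 and -0.21 for replicates 1 to 3, across genes. Deviations from means of 3 libraries cannot show that the samples were not handled together.

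With equal library totals the median of all genes was -0.53, against -0.02 with the values as deposited. Relative to that median of -0.53 Reln lay at 0.49 and Colec11 at 0.51, against -0.04 and -0.02 unadjusted. Relative to the hepatocyte list Reln, Colec11 and Lhx2 changed sign, at -0.71, -0.69 and -0.36; Rgs5 changed sign without vehicle replicate 3, at 0.28. Ecm1, Cygb, Bmp10, Gfap, Ngfr and Hand2 kept their sign in each setting run, with ranges of 0.99 to 2.57, -4.68 to -2.82, 0.56 to 2.34, 0.08 to 1.76, 0.61 to 2.62 and -1.90 to -0.06. Ngfr was not fitted in edgeR. Of 169 other values of the 10 genes 11 moved by more than the spread between replicates, and of 285 list medians 28 did. The filters and the replicate block could not change the log2 difference of any of the 10 genes. The sign change of Rgs5 without vehicle replicate 3 counted as not moved. The count for the 10 genes is therefore no measure of their stability. Low counts limit Bmp10, Ngfr, Hand2 and Gfap.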
